A study of Mus musculus with 18 samples.

Results

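The interferon-inducible GTPases described here are 9 genes, chosen by name from the 21899 genes listed in the deposited expression values: 5 guanylate-binding proteins (*Gbp2*, *Gbp3*, *Gbp6*, *Gbp7* and *Gbp9*) and 4 immunity-related GTPases (*Iigp1*, *Igtp*, *Irgm1* and *Irgm2*). All 9 were found. They were measured in liver, epididymal white adipose tissue (eWAT) and skeletal muscle of male wild type C57BL/6 mice, 18 weeks old, that were either controls on chow and tap water (CON) or had 12 weeks of a high-salt diet with saline to drink (HSD). Each of the 6 groups had 3 libraries of total RNA depleted of ribosomal RNA, 18 in all. The library labels join a tissue letter to 8 names, read here as mice, so most mice gave several tissues, and the same 6 names gave eWAT and muscle. The comparison by diet asked which genes of these metabolic tissues change under a high-salt diet.

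Guanylate-binding proteins (GBPs) and immunity-related GTPases (IRGs) are GTPases that cells make when interferon reaches them. Interferons act through factors that bind the gamma-activated sequence (GAS) and the interferon-stimulated response element (ISRE) in front of such genes, among them IRF1, which binds the ISRE. The proteins gather on vacuoles that hold intracellular parasites and bacteria and help to break them open. Within the IRGs, Iigp1 is an effector that loads onto the vacuole, while Igtp, Irgm1 and Irgm2 are regulators that sit on the cell's own membranes and keep the effectors inactive there. In tissues, immune, endothelial and parenchymal cells can all express them.

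The genes lie in a few clusters of the mm10 genome (GRCm38, GENCODE M21), and each is annotated as protein-coding. *Gbp7* (chr3:142530342-142550149), *Gbp3* (chr3:142560026-142573209) and *Gbp2* (chr3:142620602-142638008) follow each other on the plus strand of chromosome 3. *Gbp9* (chr5:105077630-105139539) and *Gbp6* (chr5:105270702-105293698) are on the minus strand of chromosome 5. *Irgm1* (chr11:48861968-48871683, minus strand), *Igtp* (chr11:58199556-58207591, plus strand) and *Irgm2* (chr11:58199618-58222782, plus strand) are on chromosome 11. Exons of *Gbp6* shared 29.0% of their bases with those of Gm43302 on the same strand, and *Igtp* and *Irgm2* shared 162 exon bases, 8.0% of *Igtp* and 4.4% of *Irgm2*. *Gbp9* shared 1.2% of its exon bases with *Gbp8* and *Gbp4*. Reads from shared bases may have been given to either gene, so the values of *Gbp6* in particular are uncertain.

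The stretch just before the start site is shown for the members for which the RefSeq promoter table (GRCm38.p6) had an entry used here, because it carries the ISRE letters that the genes share. These were *Gbp2*, *Gbp3*, *Gbp7*, *Igtp*, *Irgm1* and *Irgm2*. *Gbp6* and *Gbp9* were not matched. Each window below is 30 bases, 5′ to 3′ on the gene's strand, and capitals mark the ISRE core GAAANNGAAA, which reads TTTCNNTTTC where it lies on the opposite strand.
Gbp2 (chr3:142620594-142620623, plus strand): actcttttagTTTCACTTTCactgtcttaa
Gbp3 (chr3:142559992-142560021, plus strand): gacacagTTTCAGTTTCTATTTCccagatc
Gbp7 (chr3:142530273-142530302, plus strand): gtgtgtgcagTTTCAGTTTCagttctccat
Igtp (chr11:58199512-58199541, plus strand): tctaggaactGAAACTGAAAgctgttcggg
Irgm2 (chr11:58214903-58214932, plus strand): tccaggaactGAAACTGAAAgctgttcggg
Irgm1 (chr11:48871428-48871457, minus strand): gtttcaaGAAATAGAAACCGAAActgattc

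All 6 genes held the ISRE core within 250 bases before and 50 after a start site, on either strand, compared with 3.44% of the 32851 start sites in the table (1131). In the 3 GBPs the core lay on the strand opposite to the gene, and in the 3 IRGs on the gene's own strand. *Gbp3* and *Irgm1* had 2 cores that overlap. *Gbp3* had a second start site in the table, whose window held no core. The *Igtp* and *Irgm2* windows matched at 29 of 30 bases. The GAS letters TTCNNNGAA, the same on both strands, were found in *Gbp7*, *Igtp* and *Irgm2* and at 8.3% of all start sites (2726). In *Igtp* the GAS match ran from 45 to 37 bases before the start site and the ISRE core from 34 to 25, and in *Irgm2* they ran from 75 to 67 and from 64 to 55. In *Gbp7* there were 2 GAS matches, further out than the core. These are matches of letters, not measured binding. The *Gbp2* window crosses the more upstream start that GENCODE gives. The *Irgm2* and *Irgm1* windows lie wholly inside the genes as GENCODE gives them, which start at chr11:58199618 and, on the minus strand, at chr11:48871683. For these 2 genes, the windows are thus in front of the RefSeq start only.

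**Figure D1:**
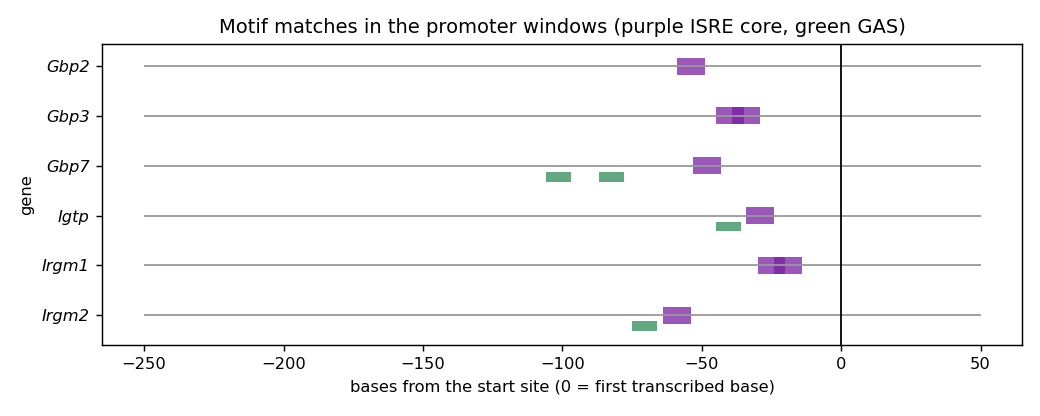
Position of the ISRE core (purple) and GAS letters (green) relative to the RefSeq start site (x axis, bases) in 6 of the genes, 1 line per gene. Every ISRE core starts within 64 bases of the start site, and the GAS matches of *Igtp* and *Irgm2* lie just upstream of the core.

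The 18 libraries held between 7575649 and 16184207 fragments on genes. The values are FPKM (fragments scaled by gene length and library size), so they can be compared between genes. The fragments behind a member's value ranged from 4 to 1802 for *Gbp2* and from 86 to 4176 for *Iigp1*. Markers of hepatocytes, adipocytes and muscle fibres were each highest in the tissue they label. The liver library of mouse CON16 also had a summed level of 5 muscle fibre markers of 3720 FPKM, compared with 1.89 to 5.13 FPKM in the other livers. The eWAT library of mouse HS3 had 18517 FPKM of 10 epididymal epithelium markers, compared with 1.10 to 13.4 FPKM in the other eWAT libraries, and 1637 FPKM of 5 adipocyte markers, compared with 4689 to 5359 FPKM. Mitochondrially encoded genes took 15.5% to 61.2% of the liver fragments, which affects every FPKM value of a liver library. The tissue, diet and list results and the correlations below are also given without the liver library of CON16 and the eWAT library of HS3.

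In CON mice, the make-up of the family differed by tissue. Liver was dominated by *Iigp1*, *Gbp2* had the highest mean in eWAT, and in muscle the genes lay closer together with *Irgm2* and *Igtp* at the top. *Iigp1* took 55.2% to 73.4% of the summed FPKM of the 9 genes in the 6 liver libraries, 6.85% to 11.1% in eWAT and 5.42% to 11.2% in muscle. *Gbp2* took a smaller part of eWAT, 18.0% to 29.2% in its 6 libraries. The 5 GBPs together took 4.16% to 10.9% in liver, 50.2% to 65.2% in eWAT and 38.4% to 45.8% in muscle, so no liver library overlapped with another tissue. These shares do not depend on the scaling of a library.

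**Figure D2:**
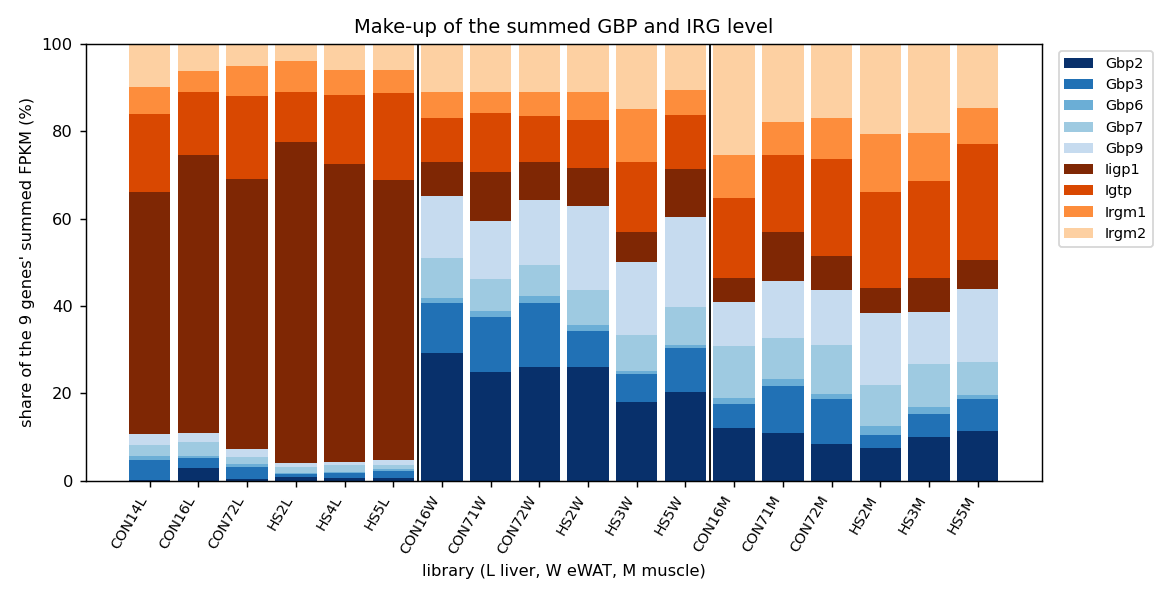
Share of each gene in the summed FPKM of the 9 genes (y axis, %), 1 bar per library, with GBPs in blue and IRGs in orange and brown. *Iigp1* fills over 55% of each liver bar, and the GBPs fill 50.2% or more of each eWAT bar.

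*Iigp1*, the effector IRG (chr18:60376027-60392634, plus strand), had 50.8 ± 6.73 FPKM in CON liver, 13.7 ± 6.70 in CON eWAT and 3.85 ± 2.90 in CON muscle (SD, n = 3 each). Its lowest CON liver library, with 43.5 FPKM, was above its highest CON eWAT library, with 21.0 FPKM. *Gbp2* was instead highest in CON eWAT and lowest in CON liver, with 29.5, 47.3 and 36.1 FPKM in the eWAT of mice CON16, CON71 and CON72. In CON liver it had 0.208, 2.36 and 0.391 FPKM in mice CON14, CON16 and CON72, and in CON muscle 3.54, 7.01 and 3.06 FPKM in mice CON16, CON71 and CON72. The value of 2.36 FPKM is that of the liver library with muscle fibre markers, in which the summed level of 6 endothelial markers was also higher, at 25.2 FPKM compared with 6.43 to 8.33 FPKM in the other livers. The part of these markers in the *Gbp2* value was not tested.

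*Gbp9* averaged 20.1 ± 5.48 FPKM in CON eWAT, 5.30 ± 2.80 in CON muscle and 1.71 ± 0.252 in CON liver. *Gbp3* averaged 18.7 ± 6.35, 4.01 ± 2.56 and 2.71 ± 0.798 FPKM in the same order, and *Gbp7* 11.1 ± 2.60, 4.49 ± 1.31 and 2.11 ± 0.545 FPKM. *Gbp6* had the lowest CON mean in each tissue, with 1.86 ± 0.767 FPKM in CON eWAT, 0.608 ± 0.359 in CON muscle and 0.492 ± 0.218 in CON liver, where it overlapped with *Gbp2*. Among the regulators, *Igtp* had 16.8 ± 8.11 FPKM in CON eWAT, 14.4 ± 2.81 in CON liver and 8.17 ± 2.87 in CON muscle. *Irgm2* had 15.8 ± 4.99, 5.79 ± 1.71 and 8.29 ± 2.73 FPKM, and *Irgm1* 7.66 ± 1.51, 5.06 ± 1.25 and 3.70 ± 1.05 FPKM, in the same tissues. The regulators thus varied less from tissue to tissue than *Iigp1* or *Gbp2*.

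Many neighbours in the order of levels could not be separated within a tissue. In CON liver, *Iigp1*, *Igtp*, and the pair of *Irgm2* and *Irgm1* formed 3 steps whose library ranges did not overlap, and the 5 GBPs below them overlapped from each to the next. In CON eWAT, *Gbp2* stood above all others and *Gbp6* below, while the 6 genes from *Gbp9* to *Gbp7* overlapped from each to the next. *Irgm1*, with 6.12 to 9.14 FPKM, lay below *Gbp7* but overlapped with *Iigp1*, which had 7.93 to 21.0 FPKM. In CON muscle, the first 8 genes overlapped from each to the next and *Gbp6* alone stood below.

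**Figure D3:**
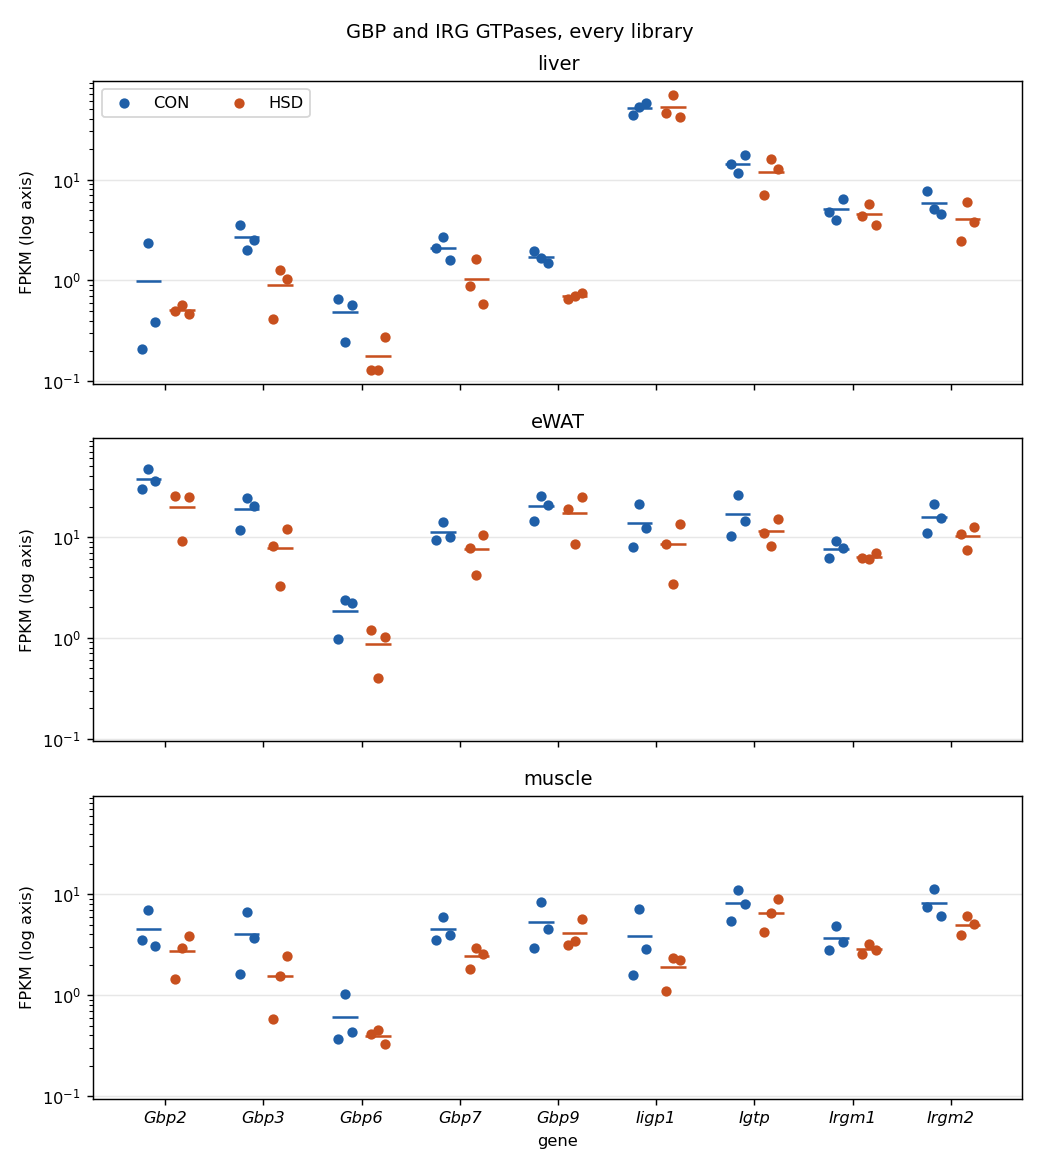
FPKM of each gene (y axis, log scale) in every CON (blue) and HSD (orange) library of liver, eWAT and muscle, with the group mean as a line (n = 3 libraries per group). *Iigp1* stands highest in liver, *Gbp2* in CON eWAT, and the CON mean of *Gbp6* is the lowest in each tissue.

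The CON tissues were compared by limma on log2(FPKM + 0.5), with a gene called when its Benjamini-Hochberg adjusted p was under 0.05 and its absolute log2 difference at least 1. FPKM of all genes differed between tissues, with a median log2 difference of 1.36 for eWAT minus liver, 0.931 for eWAT minus muscle and −0.524 for liver minus muscle, so member values are read against these medians. Between CON eWAT and CON liver, 6 of 9 members were called higher in eWAT (*Gbp2*, *Gbp3*, *Gbp6*, *Gbp7*, *Gbp9* and *Irgm2*), as were 62.1% of the 12637 genes tested, and *Iigp1* was called lower, as were 7.26%. The members' median difference was 1.36 as well. The *Gbp2* difference was 4.94 ± 0.50 (SE, adjusted p = 1.28e-05), that of *Gbp9* 3.19 ± 0.33 (adjusted p = 1.5e-05) and that of *Iigp1* −1.95 ± 0.47 (adjusted p = 0.00359). Without the liver library of CON16, 7 members were again called between these tissues, with 5.56 for *Gbp2*, 3.18 for *Gbp9* and −1.93 for *Iigp1*.

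Compared with CON muscle, 6 of 9 members were called higher in CON eWAT (*Gbp2*, *Gbp3*, *Gbp6*, *Gbp7*, *Gbp9* and *Iigp1*), next to 46.9% of all genes, and none was called lower, next to 7.98%. *Gbp6*, at 1.07, was just past the fold threshold, and its call was lost with a pseudocount of 1 (0.81), without mitochondrially encoded genes (0.998, adjusted p = 0.0543), and with the eWAT library of CON71 or CON72 or the muscle library of CON16 or CON72 left out (0.90 to 0.98). The 3 regulators had differences of 0.95 (*Igtp*), 0.97 (*Irgm1*) and 0.89 (*Irgm2*), with adjusted p between 0.00458 and 0.0356. These are under the fold threshold and close to the median of all genes, 0.931. Between CON liver and CON muscle, *Iigp1* was called higher in liver with a log2 difference of 3.76 ± 0.47 (adjusted p = 8.86e-05), a call made for 15% of genes. *Gbp2* (−1.97 ± 0.50) and *Gbp9* (−1.29 ± 0.33) were called lower in liver, a call made for 35.1%. The *Gbp9* call was lost with the muscle library of CON71 left out (−0.93). Without the liver library of CON16, *Gbp7* was also called lower in liver (−1.08, adjusted p = 0.00352), and *Gbp2* differed by −2.58.

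The scaling of libraries decided several of these calls. With libraries scaled so that the median gene was level (median-ratio scaling), 4 members instead of 7 were called between eWAT and liver, and 2 instead of 6 between eWAT and muscle. Over all genes, the higher share of calls went from 7851 of 8768 to 2564 of 5189 between eWAT and liver, from 5924 of 6933 to 2435 of 4720 between eWAT and muscle, and from 1893 of 6329 to 2941 of 6036 between liver and muscle. The eWAT minus liver difference of *Igtp* went from 0.13 to −1.47, that of *Irgm1* from 0.56 to −0.97 and that of *Irgm2* from 1.36 to −0.22. The 4 calls between eWAT and liver were *Gbp2* and *Gbp9*, higher in eWAT, and *Iigp1* and *Igtp*, higher in liver. *Gbp2* and *Gbp3* were the 2 called higher in eWAT than in muscle, and *Iigp1* was called higher in liver than in muscle under both scalings. Between liver and muscle, the *Gbp9* call was lost with median-ratio scaling (−0.78, adjusted p = 0.0635) and without mitochondrially encoded genes (−0.81, adjusted p = 0.106). *Igtp* was then called higher in liver, with 1.45 and 1.41, and *Irgm1* with median-ratio scaling (1.015). Without mitochondrially encoded genes, the eWAT minus liver calls of *Gbp6* (0.77, adjusted p = 0.124) and *Irgm2* (0.64, adjusted p = 0.199) were lost as well, and that of *Gbp6* also with a pseudocount of 1 (0.91).

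Under the high-salt diet, no member passed the call threshold in any tissue. Nearly all fitted differences were below 0: 7 of the 8 members tested in liver, 9 of 9 in eWAT and 9 of 9 in muscle were lower in HSD than in CON. Among all genes, 37.3% of 10317 in liver, 40.9% of 13740 in eWAT and 60.8% of 10834 in muscle were lower. The members' median log2 difference was −0.40 in the livers, −0.61 in the fat pads and −0.63 in muscle, compared with 0.13, 0.08 and −0.06 for all genes tested. *Gbp3* had the lowest fitted difference of the members in each tissue. With limma, 0 members were called in liver (0% of all genes), 0 in eWAT (0%) and 0 in muscle (0.323%), and limma voom on fragments recovered from the FPKM also called 0 members in each. *Gbp6* in liver was under the minimum mean of 0.5 FPKM and was not tested there.

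**Figure D4:**
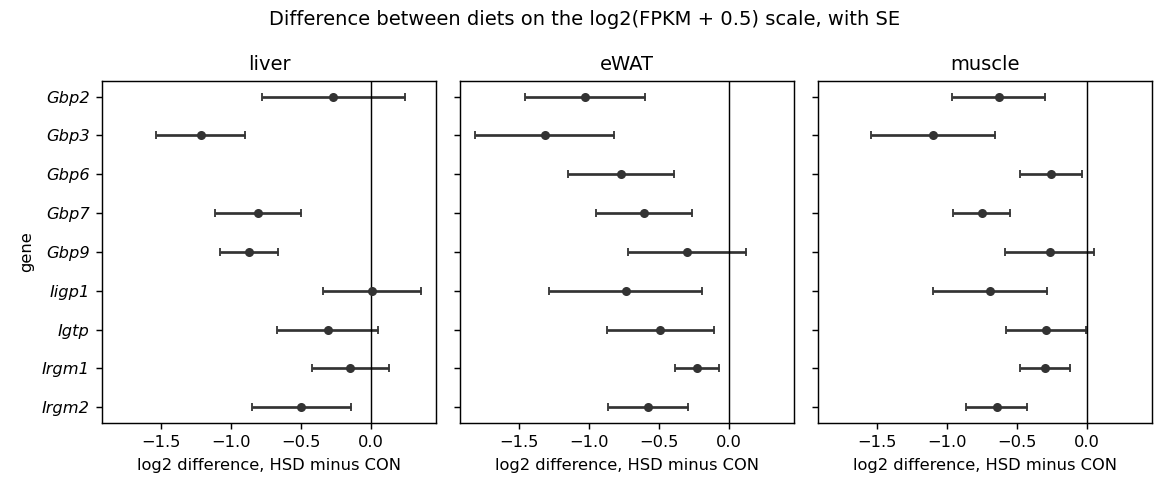
Fitted difference between HSD and CON (x axis, log2(FPKM + 0.5)) for each gene in liver, eWAT and muscle, with its SE as bars (n = 3 libraries per group). Points lie left of 0 except *Iigp1* in liver, *Gbp3* lies furthest left in each tissue, and *Gbp6* is not drawn in liver because it was not tested.

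In liver, *Gbp3* had 3.57, 2.002 and 2.54 FPKM in mice CON14, CON16 and CON72 and 0.411, 1.27 and 1.04 FPKM in mice HS2, HS4 and HS5. *Gbp9* had 1.98, 1.66 and 1.48 FPKM in the CON livers and 0.649, 0.708 and 0.746 FPKM in the HSD livers, in the same order. Every HSD library was thus below every CON library for these 2 of 8 members, as for 3.47% of all genes. The differences were −1.21 ± 0.32 for *Gbp3* (SE, unadjusted p = 0.0059 by limma) and −0.87 ± 0.20 for *Gbp9* (unadjusted p = 0.00334), each with an adjusted p of 0.764. *Gbp7*, with 2.08, 2.67 and 1.58 against 0.889, 1.61 and 0.584 FPKM, differed by −0.80 ± 0.30, and these 3 genes had an unadjusted p under 0.05 with the lower value in HSD, as had 1.96% of all genes. The adjusted p depended on the libraries used. With the study's libraries alone (without liver CON16 and HS5), limma gave −1.47 for *Gbp3* (adjusted p = 0.0624) and −0.91 for *Gbp9* (adjusted p = 0.0815). *Gbp7* had −0.43 (adjusted p = 0.343) in that fit. It called 0 of 7 members tested, next to 35 of 9970 genes.

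*Iigp1*, the most abundant member in liver, did not follow them. It had 43.5, 52.2 and 56.7 FPKM in the CON livers and 45.4, 69.1 and 41.5 FPKM in the HSD livers, and its difference was 0.01 ± 0.35, or −0.10 with median-ratio scaling and −0.37 with mitochondrially encoded genes left out. *Igtp*, *Irgm1* and *Irgm2* had differences of −0.31, −0.15 and −0.50, with groups that overlapped. The share of the 5 GBPs in the summed FPKM was accordingly 10.8%, 10.9% and 7.17% in the CON livers and 4.16%, 4.24% and 4.80% in the HSD livers, without overlap. This share is built from the same liver values and is no separate result. No like share was computed for other sets of genes. With mitochondrially encoded genes left out, the median of all liver genes went from 0.13 to −0.20. The 8 members of the main fit were then all lower in HSD, with −1.64 for *Gbp3* and −1.27 for *Gbp9*. *Gbp6* passed the minimum level in that fit, and 0 of 9 members tested were called, next to 0 of 11168 genes. Without the CON16 library, the differences were −1.38 for *Gbp3*, −0.88 for *Gbp9* and 0.03 for *Iigp1*, *Gbp2* was under the minimum level, 6 of 7 members tested were lower in HSD (34.3% of all genes), and 0 were called (0.00998% of all genes). *Gbp6* had 0.661, 0.246 and 0.569 FPKM in CON and 0.129, 0.129 and 0.275 FPKM in HSD, on 8 to 31 fragments per library.

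In eWAT, *Gbp2* had 29.5, 47.3 and 36.1 FPKM in mice CON16, CON71 and CON72 and 25.3, 9.05 and 24.6 FPKM in mice HS2, HS3 and HS5. It was the 1 member of 9 in which every HSD library was below every CON library, as in 12.4% of all genes. *Gbp3* had 11.7, 24.1 and 20.3 FPKM in CON and 8.17, 3.26 and 12.0 FPKM in HSD, so that the groups overlapped. The differences were −1.03 ± 0.43 for *Gbp2* (adjusted p = 0.304) and −1.31 ± 0.49 for *Gbp3* (adjusted p = 0.275). *Gbp3* alone had an unadjusted p under 0.05 (0.0382), with the lower value in HSD, as had 7.55% of all genes.

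The library of mouse HS3 was the lowest of the 6 eWAT libraries for all 9 members, as it was for 29.9% of all genes. Without it, the difference was −0.56 for *Gbp2* (adjusted p = 0.126), −0.82 for *Gbp3* (adjusted p = 0.162) and 0.13 for *Gbp9*, and 0 members were called, as were 1.21% of all genes (160). Without HS3, 8 of 9 members had a lower fitted value in HSD, as had 43.8% of all genes, and the members' median was −0.28.

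Markers of other cell types also moved in eWAT. The summed level of 5 hepatocyte markers was 92.3 to 272 FPKM in CON and 5.21 to 14.0 FPKM in HSD, without overlap, and each of the 5 was lower in HSD at an unadjusted p under 0.05, with a median log2 difference of −3.52. Skeletal muscle markers had 7.36 to 15.5 FPKM in CON and 26.6 to 43.2 FPKM in HSD. Male germ cell markers had 516, 226 and 31.9 FPKM in mice HS2, HS3 and HS5, compared with 0.189 to 38.8 FPKM in CON. The part of these and of the epididymal markers in the members' values was not tested.

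In muscle, *Gbp7* had 3.55, 5.99 and 3.95 FPKM in mice CON16, CON71 and CON72 and 1.81, 2.95 and 2.57 FPKM in mice HS2, HS3 and HS5. *Irgm2* had 7.51, 11.3 and 6.03 FPKM in CON and 3.97, 6.03 and 5.02 FPKM in HSD. These 2 of 9 members had every HSD library below every CON library, as had 15.6% of all genes, although the nearest *Irgm2* libraries were 6.0329 and 6.0315 FPKM. The differences were −0.75 ± 0.21 for *Gbp7* (adjusted p = 0.12) and −0.65 ± 0.22 for *Irgm2* (adjusted p = 0.192). *Gbp3* had 1.64, 6.72 and 3.67 FPKM in CON and 0.575, 1.56 and 2.47 FPKM in HSD, a difference of −1.10 ± 0.44 (adjusted p = 0.265). These 3 genes had an unadjusted p under 0.05 and the lower value in HSD, as had 12% of all genes.

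With the replicate number as a block, 1 member was called in muscle, *Gbp3*, with the same difference and an adjusted p of 0.0456, next to 0.498% of all genes (54, compared with 35 without the block). *Gbp7* had an adjusted p of 0.026 with the block and stayed under the fold threshold. Without the muscle library of mouse CON71, the differences were −0.67 for *Gbp3*, −0.55 for *Gbp7* and 0.10 for *Gbp9*, and 0 members were called.

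The differences between diets were themselves compared between tissues in 1 fit of all 18 libraries. No member differed at an adjusted p under 0.05 between liver and muscle (0.0612% of 13067 genes did), between eWAT and liver (0.788%) or between eWAT and muscle (0%), and no member had an unadjusted p under 0.05 in any of the 3. Limma voom on recovered fragments also found 0 members. The count over all genes moved with the libraries used. With the study's libraries alone (without liver CON16, liver HS5 and eWAT HS5) it was 1802 of 13149 genes between liver and muscle, 3126 between eWAT and liver and 177 between eWAT and muscle, and without liver HS5 it was 62, 638 and 8 of 13119 genes, with 0 members in each. For *Iigp1*, whose fitted diet difference was 0.01 in liver but −0.74 in eWAT, the difference between these 2 was −0.75 ± 0.69 (SE, adjusted p = 0.599).

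The members moved together from library to library. With each tissue centred on the mean of its 6 libraries, the 36 pairs of members had Pearson correlations from 0.353 (*Gbp2* with *Irgm1*) to 0.87, with a median of 0.742, over 18 libraries that include both diets and share mice. *Gbp3* followed the mean of the other members most closely (r = 0.932) and *Gbp2* least (r = 0.69). Without the liver library of CON16 and the eWAT library of HS3, over 16 libraries, the pairs ranged from 0.382 to 0.874 with a median of 0.702, and *Gbp3* and *Gbp2* had r = 0.911 and 0.654.

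A single mouse had the highest values in 2 tissues. Mouse CON71 had the highest value of 6 libraries for 9 of 9 members in eWAT and for 9 of 9 in muscle, whereas its library was highest for 11.1% of all genes in eWAT, for 21.7% in muscle and for 3.09% of 10488 genes in both. Relative to the mean of the other CON mice, its *Iigp1* was 2.10-fold higher in eWAT and 3.21-fold higher in muscle, its *Gbp3* 1.51-fold and 2.53-fold, and its *Irgm1* 1.32-fold and 1.57-fold. Its summed macrophage marker level was the lowest of the CON mice in both tissues, at 593 FPKM in eWAT compared with 815 and 881, and at 58.1 FPKM in muscle compared with 92.2 and 92.8. Its hepatocyte marker sum was the highest of the 6 libraries in both tissues, at 272 and 34.7 FPKM, and its adipocyte marker sum the highest in muscle, at 40.2 FPKM. The part of these markers in its values was not tested. No liver library of this mouse was analysed here. At the other end, the muscle library of mouse HS2 was the lowest for 7 of 9 members (26.2% of all genes), and its liver library was the lowest for 5 of 9 (7.39%).

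**Figure D5:**
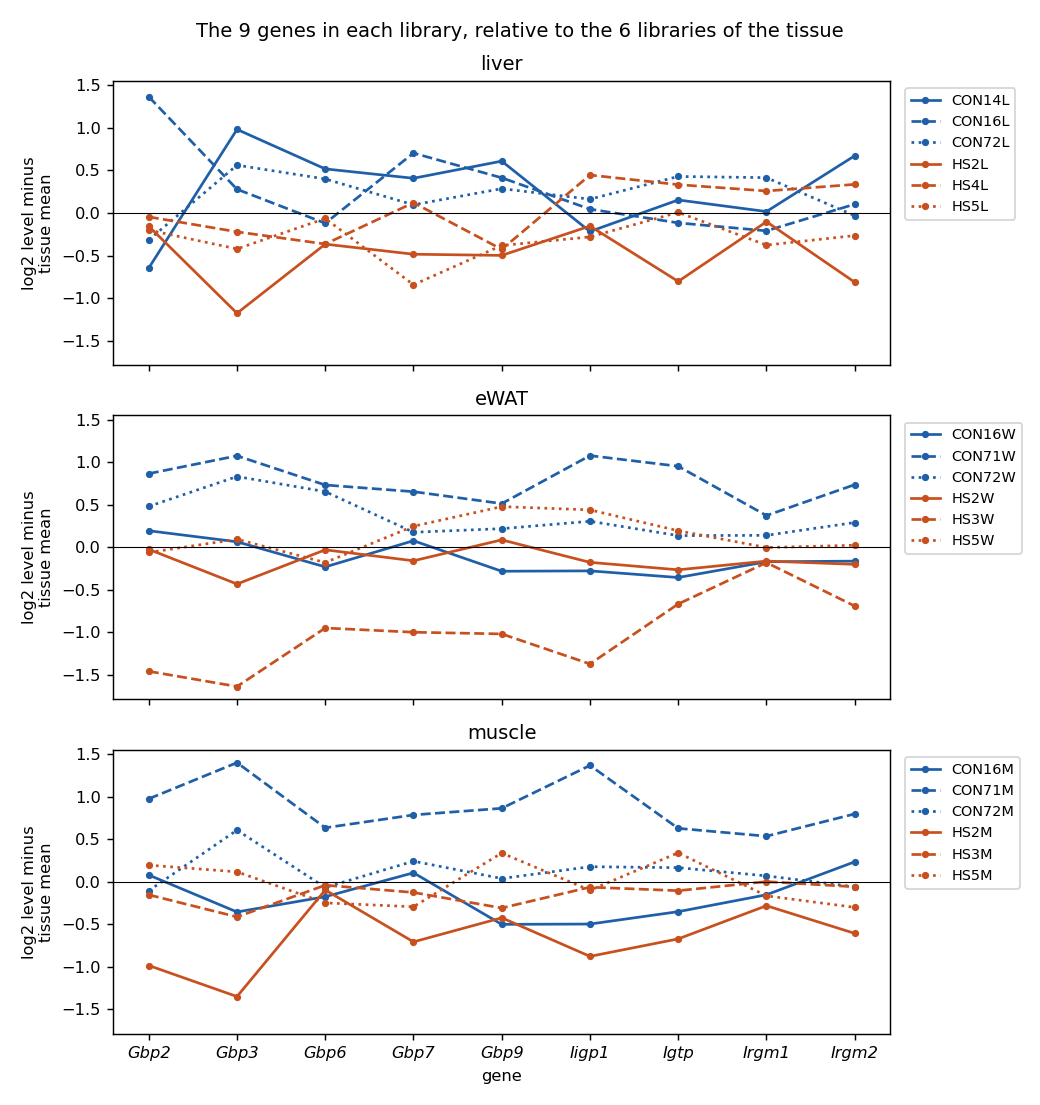
Level of the 9 genes in each library relative to the mean of the 6 libraries of its tissue (y axis, difference in log2(FPKM + 0.5)), with CON in blue and HSD in orange, and library names that join the mouse and L for liver, W for eWAT or M for muscle. CON71 lies on top for each gene in eWAT and muscle, and HS3 lies at the bottom for each gene in eWAT, with *Irgm1* closest to its neighbours.

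Macrophages are a known source of these GTPases, and the summed FPKM of 11 macrophage markers was lower in every HSD library than in every CON library of the same tissue. In liver it was 66.2 to 76.4 FPKM in CON and 27.4 to 44.3 FPKM in HSD. The eWAT libraries had 593 to 881 and 258 to 558 FPKM, and those of muscle 58.1 to 92.8 and 43.1 to 47.3 FPKM. Of all single genes, 3.47% in liver, 12.4% in eWAT and 15.6% in muscle had every HSD library below every CON library. By fitted difference, 9 of 10 markers tested were lower in HSD liver, 9 of 9 in eWAT and 8 of 9 in muscle. Of these, 1 was called, in muscle, next to 0.323% of all genes there. Mean FPKM was higher in HSD for *Mrc1* in liver (1.44 in CON, 1.48 in HSD) and *Cd163* in muscle (2.86 and 3.70). In muscle, *Clec4f* and *Marco* were listed at 0 in each library. *Clec4f*, a marker of the resident macrophages of liver, was 13.5 to 28.6 FPKM in CON and 5.55 to 9.33 FPKM in HSD liver. Lower fitted values were not particular to macrophage markers. Endothelial markers were lower in HSD for 5 of 5 tested in liver, 5 of 6 in eWAT and 5 of 6 in muscle. So were 5 of 5 adipocyte markers in eWAT, 1 of 5 hepatocyte markers in liver and 0 of 5 muscle fibre markers in muscle. None of these was called. Of all genes, 37.3% in liver, 40.9% in eWAT and 60.8% in muscle were lower. The part of these markers in the members' differences was not tested, and in bulk tissue fewer cells of a type and less RNA per cell cannot be told apart.

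Of the ligands and receptors, *Ifng*, which encodes interferon gamma, was between 0 and 0.0844 FPKM in every library. In the interferon-gamma pathway list of 18 genes, which lie upstream of the members or respond with them, 3 of 14 tested genes were lower in HSD liver, 12 of 17 in eWAT and 10 of 13 in muscle, and 0 were called. Of all genes, 37.3%, 40.9% and 60.8% were lower in these tissues, and 0%, 0% and 0.323% were called. *Irf1* had fitted differences of 0.14 in liver, −0.07 in eWAT and −0.04 in muscle. Across the 18 centred libraries, *Irf1* followed the members' mean with r = 0.438, and over the 16 libraries without CON16 liver and HS3 eWAT with r = 0.195. Without those libraries, 2 of 14 genes of the list were lower in HSD liver and 8 of 17 in eWAT, next to 34.3% and 43.8% of all genes.

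In the type I interferon list of 14 genes, 10 of 13 tested genes were lower in HSD liver, 11 of 13 in eWAT and 11 of 12 in muscle, again with 0 called. Their median log2 differences were −0.58, −0.46 and −0.49. The shares of all genes lower in HSD, for this list and those below, were 37.3% in liver, 40.9% in eWAT and 60.8% in muscle. *Ifit3*, an interferon-induced antiviral gene, had differences of −1.16, −1.45 and −0.96 in the 3 tissues, and its muscle value had an adjusted p of 0.0452, under the fold threshold. Without HS3, 10 of 13 genes of the type I list were lower in eWAT, next to 43.8% of all genes. Of these, 3 were called, next to 1.21% of all genes (160): *Ifit3* (−1.27 ± 0.24, adjusted p = 0.0388), *Isg15* (−1.56 ± 0.25, adjusted p = 0.0292) and *Oas1a* (−1.04 ± 0.21, adjusted p = 0.044). Without CON16, 10 of 13 were lower in liver, next to 34.3% of all genes, and 0 were called, next to 0.00998%. Of 17 other GBP and IRG genes, 7 of 8 tested were lower in HSD liver, 8 of 10 in eWAT and 7 of 8 in muscle, with 0 called. *Tgtp2*, another IRG, followed the members' mean with r = 0.977, and *Ifi47* with r = 0.919, or 0.976 and 0.888 over the 16 libraries. *Tgtp2* has the near-identical copy *Tgtp1*, so its reads may be split between both genes. For the 15 partners in vacuole and autophagy pathways, 0 of 12 tested genes were lower in HSD liver, 9 of 15 in eWAT and 8 of 13 in muscle, with 0 called. Without CON16, 6 of 8 of the other GTPases and 0 of 13 partners were lower in liver, and without HS3, 8 of 10 and 9 of 15 were lower in eWAT, with 0 called.

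Outside these lists, the 5 genes whose centred level was most like the members' mean, of 8929 genes at 0.5 FPKM or more in each tissue, were *Psmb9* (r = 0.875), *Cmpk2* (r = 0.848), *Sp100* (r = 0.847), *Parp12* (r = 0.844) and *Ifi27* (r = 0.822), over the same 18 libraries. Over the 16 libraries they had r = 0.857, 0.82, 0.779, 0.822 and 0.756, and *Psmb9*, *Parp12* and *Cmpk2* were again among the 5 highest, with *Msn* (r = 0.803) and *Ehd2* (r = 0.801). *Psmb9* encodes a subunit of the immunoproteasome. Its HSD and CON means were 1.17 and 2.57 FPKM (liver), 5.90 and 8.34 FPKM (eWAT), and 0.554 and 1.12 FPKM (muscle).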

How the data were processed

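Total RNA was measured in 18 libraries of 3 tissues, and groups were taken from the sample labels. The authors used cutadapt for trimming, hisat2 for alignment of the paired-end reads to the mouse genome mm10, and cuffdiff with an Ensembl annotation (release not given in the sources used here) for the FPKM of each gene. The submitters' processing notes also name HTSeq 0.9.1 and the build mm9, with no role, and the paper mentions a batch correction without naming its values. The deposited FPKM values were used as they are. Of 18822 genes above 0, 18330 gave whole fragments within 0.02 in all libraries with the exon length of GENCODE M21, among them the 9 members.

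Values were tested as log2(FPKM + 0.5) with limma 3.58.1 (R 4.3.3, eBayes with trend), over genes with a mean of at least 0.5 FPKM, by tissue for the diet and over the CON libraries for tissues, and p-values were adjusted over all genes tested. The fit was also run on simulated counts with the same spread for every gene. Such counts hold no mixed libraries like liver CON16 and eWAT HS3, so that run does not test how the fit handles them. The mean of 3 libraries limits the precision, and no label ties a replicate number to a litter or day. In muscle, deviations from group means correlated at 0.383, 0.177 and 0.184 between libraries of the same replicate number, taken from the labels, so the number was also used as a block. Promoter windows came from RefSeq. The members and gene lists were chosen with earlier results of these data known. All 9 members and any gene of the lists could be named (1 listed gene is not reported here), and the 5 similar genes were those with the highest correlation.

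Alternatives were other pseudocounts (0.1 and 1), no filter or a minimum mean of 1 FPKM, median-ratio scaling, mitochondrially encoded genes left out, all tissues in 1 fit, arrayWeights, no trend, adjusted p alone, the replicate block, mouse as a random block, HSD in place of CON libraries, the study's libraries alone, each library left out, and, chosen after seeing the data, limma voom and, for correlations and lists, leaving out liver CON16 and eWAT HS3.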

Additional observations from a re-analysis of the deposited data

How the results depend on the processing

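Of 185 recomputed counts of members called, 181 lay within 1.5 times the reported count. The exceptions were 2 in liver with arrayWeights (*Gbp3* and *Igtp*, 926 genes called, with weights that stopped before the convergence tolerance was reached in this fit), 1 in muscle with the replicate block, and, with median-ratio scaling, 4 between eWAT and liver and 2 between eWAT and muscle. Apart from the scaling, the cause was not tested. With each library left out in turn, 0 members were called by diet in each tissue and in each comparison of diet differences, 7 between CON eWAT and liver, 5 to 9 between CON eWAT and muscle and 3 to 4 between CON liver and muscle. The replicate block changed no other count. In liver and eWAT, deviations of libraries with the same number correlated between −0.473 and 0.414. Libraries with different numbers were not compared in this way, so whether the number marks a pairing in any tissue was not tested.

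Of 453 recomputed diet differences of members, 11 changed sign. In liver, *Iigp1* was −0.096 with median-ratio scaling, −0.365 without mitochondrially encoded genes and −0.298 with arrayWeights, *Gbp2* was 0.117 with arrayWeights, and with each library left out *Iigp1* ranged from −0.214 to 0.149, *Irgm1* from −0.314 to 0.023 and *Igtp* from −0.554 to 0.015 (without CON14 or HS4, CON72 or HS5, and HS2, the sign changed). *Gbp9* ranged from −0.616 to 0.132 in eWAT (changed without HS3) and from −0.582 to 0.10 in muscle (changed without CON71). Of 483 tissue differences, 19 changed sign. Liver minus muscle was 0.210 for *Gbp3*, 0.226 for *Gbp6* and 0.127 for *Irgm2* with median-ratio scaling, and 0.180, 0.228 and 0.090 without mitochondrially encoded genes. Under the same settings, differences also changed sign for eWAT minus liver for *Igtp* (−1.470, −0.609 and, with HSD libraries, −0.048), *Irgm1* (−0.974 and −0.150) and *Irgm2* (−0.215), and eWAT minus muscle for *Igtp* (−0.024) and *Irgm2* (−0.088). With each library left out, liver minus muscle ranged from −0.292 to 0.113 for *Gbp6* (changed without liver CON16 or muscle CON71) and from −0.804 to 0.073 for *Gbp3* (without muscle CON71), and eWAT minus liver from −0.221 to 0.432 for *Igtp* (without liver CON16 or eWAT CON71).

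Depth limits *Gbp6* and *Gbp2* in liver most, with 8 to 31 and 4 to 69 fragments per library. With 3 libraries per group, a difference that misses the threshold is not shown to be absent.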
